A study of Mus musculus with 10 samples.

Results

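The heat-shock chaperones were followed as 10 genes of the deposited count table, chosen by symbol: the Hsp70 genes *Hspa1a*, *Hspa1b* and *Hspa8*, the Hsp90 genes *Hsp90aa1* and *Hsp90ab1*, the Hsp110 gene *Hsph1*, the J-domain gene *Dnajb1*, the small heat-shock protein gene *Hspb1*, the co-chaperone gene *Bag3*, and *Hsf1*, the regulator. The table held 43432 genes, and 9 of the 10 were among the 14172 genes with enough counts to test. *Hspb1* was not. RNA was sequenced from RAW264.7, a mouse macrophage cell line, in 5 conditions with 2 libraries each that the labels number as biological replicates. The conditions were 0.5% DMSO alone, DMSO + LPS (bacterial lipopolysaccharide, 1 µg/mL), and the enone 7(*E*)-9-keto-hexadec-7-enoic fatty acid (**1**) at 3.2, 10 or 32 µM with the same LPS. RNA was taken after 12 h, and in the matching transcript assays of the study LPS followed **1** by 1 h. No library had **1** without LPS, so its effect on resting cells was not measured here, and all cells were of 1 line.

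Heat-shock proteins are chaperones that bind unfolded or partly folded proteins, keep them from clumping and help them reach or regain their shape. HSF1, held inactive by chaperones in unstressed cells, binds repeats of the unit nGAAn when proteins misfold and raises transcription of the inducible chaperone genes. Electrophiles such as enones can react with protein thiols, the chemistry by which the Nrf2 sensor Keap1 is also triggered, and LPS-stimulated macrophages make large amounts of secreted protein. The question here was which chaperone transcripts moved with LPS and which moved when **1** was added.

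The sequences upstream of 5 members are shown because 4 of them hold inverted pairs of the HSF1-bound unit close to the start of the gene and because *Bag3*, the member that rose with **1**, holds another motif there. They come from RefSeq on GRCm38.p6, cover the 130 bases before the start of transcription, and run 5′ to 3′ on the strand of the gene. Capitals mark GAANNTTC or TTCNNGAA, and in *Bag3* TGACTCA, a motif of the AP-1 factor family that was added to the search after the values were seen.
Hspa1a chr17:34972157-34972286 (- strand): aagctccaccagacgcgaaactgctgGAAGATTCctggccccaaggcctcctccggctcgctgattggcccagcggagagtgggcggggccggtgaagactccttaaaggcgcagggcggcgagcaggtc
Hspa1b chr17:34959239-34959368 (- strand): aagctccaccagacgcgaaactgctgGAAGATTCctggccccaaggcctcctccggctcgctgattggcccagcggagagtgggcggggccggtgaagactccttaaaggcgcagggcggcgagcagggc
Hsph1 chr5:149636337-149636466 (- strand): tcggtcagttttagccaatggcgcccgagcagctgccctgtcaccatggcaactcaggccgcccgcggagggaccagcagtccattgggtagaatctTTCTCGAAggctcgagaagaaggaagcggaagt
Hspb1 chr5:135887789-135887918 (+ strand): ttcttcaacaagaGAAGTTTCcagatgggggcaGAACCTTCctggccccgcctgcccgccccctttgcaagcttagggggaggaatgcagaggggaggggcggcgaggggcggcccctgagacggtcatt
Bag3 chr7:128523453-128523582 (+ strand): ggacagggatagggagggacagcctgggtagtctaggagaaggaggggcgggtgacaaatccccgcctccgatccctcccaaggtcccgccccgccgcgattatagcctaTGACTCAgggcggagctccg
The table of promoters had 8 entries for 6 members, each of 250 bases before and 50 bases from the start. *Hspa8*, *Hsp90aa1*, *Hsp90ab1* and *Hsf1* had none. Positions are counted from 1 at the start site, with -1 the base before it. GAANNTTC was found in 5 of the 6 members. It began at -104 in both *Hspa1a* and *Hspa1b*, at -117 and -97 in *Hspb1*, at 43 in *Bag3* and at 42 in *Hsph1*. TTCNNGAA was found in *Hsph1*, at -33 and again at 37, where it overlaps the GAANNTTC to give 3 alternating units. These positions are from the *Hsph1* start at 149636336, whose sequence is printed, and from a second listed start at 149636315 the same words lie at -54, 16 and 21. *Dnajb1* held neither. Both words are their own reverse complement, so each search covers both strands. Among all 32851 promoters of that length, 7.86% held GAANNTTC, 8.52% held TTCNNGAA, 15.1% held either and 0.603% held 3 units. Counted by gene, as the members are, these shares were 9.04, 9.6, 17 and 0.662% of 27025 genes. *Hspa1a* and *Hspa1b* differ at 3 of the 250 upstream positions, so their matches are near copies. TGACTCA, found in *Bag3* at -20, was in 5.2% of promoters when both strands were searched. The longer antioxidant-response core TGACNNNGC, also added after the values were seen, was in 12.4%, among them *Hsph1* and *Dnajb1* on the opposite strand and not *Bag3*. A match is a string of letters, and binding was not measured.

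Library totals lay between 45966803 and 58976377 counts, so the library with the smallest scaled size gave 226 counts at 5 CPM. CPM here is the count divided by the library size after TMM scaling. All 8 macrophage markers were above 5 CPM in every library. Their sum was 11500 and 10700 CPM in DMSO, 9810 and 9890 in DMSO + LPS and 7890 and 7540 at 32 µM. The markers did not move together. In the same order *Lyz2* measured 6840 and 6060, 4090 and 4160, and 2830 and 2580 CPM. *Cd14* measured 1150 and 1130, 3260 and 3360, and 2550 and 2540 CPM. *Csf1r* measured 2310 and 2220, 822 and 805, and 1090 and 1050 CPM. The part of these changes in the results was not tested. The 4 T-cell, 3 B-cell and 3 neutrophil markers summed to at most 0.0698, 0.354 and 0.945 CPM. The libraries were not all alike. The 10 µM replicate 1 held 15.9 CPM of 3 summed epithelial markers (*Epcam* 9.69 CPM) and 2.95 CPM of 3 fibroblast markers, the 3.2 µM replicate 1 held 2.48 and 0.366 CPM, and the other 8 libraries held at most 0.051 and 0.194 CPM. The 32 µM replicate 2 had 2.46% of its counts on *Gm42418*, a gene that overlaps ribosomal RNA, against 0.0419 to 0.207% elsewhere. Without 32 µM replicate 2 the members stayed on the same side of adjusted p = 0.05 at 32 µM except *Dnajb1*, without 3.2 µM replicate 1 none passed at 3.2 µM, and without 10 µM replicate 1 none passed at 10 µM. As checks of the labels, the 5 LPS-induced genes *Nos2*, *Il1b*, *Il6*, *Ptgs2* and *Ccl2* were all called higher with LPS, and of 8 Nrf2 targets 5 were called higher at 32 µM, *Nqo1* by 2.63 on the log2 scale.

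The 10 genes together took 0.621 to 0.626% of all counts in DMSO and 0.848 to 0.956% in the LPS libraries. Per kilobase (kb) of the longest annotated transcript, the level in DMSO + LPS was highest for *Hsp90ab1*, at 1503 CPM per kb in both libraries. *Hspa8*, *Hsp90aa1* and *Hsph1* followed, with means of 976, 562 and 113 CPM per kb, and then *Bag3* at 33.2, *Dnajb1* at 24.8, *Hspa1b* at 19.2 and *Hsf1* at 12.7. *Hspa1a* stood at 0.664 and *Hspb1* at 0.0437 CPM per kb. Neighbouring genes in this order had libraries that did not overlap. In DMSO the order was the same but for *Hspa1b*, whose 8.44 CPM per kb lay under the 13.6 of *Hsf1*.

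**Figure D1:**
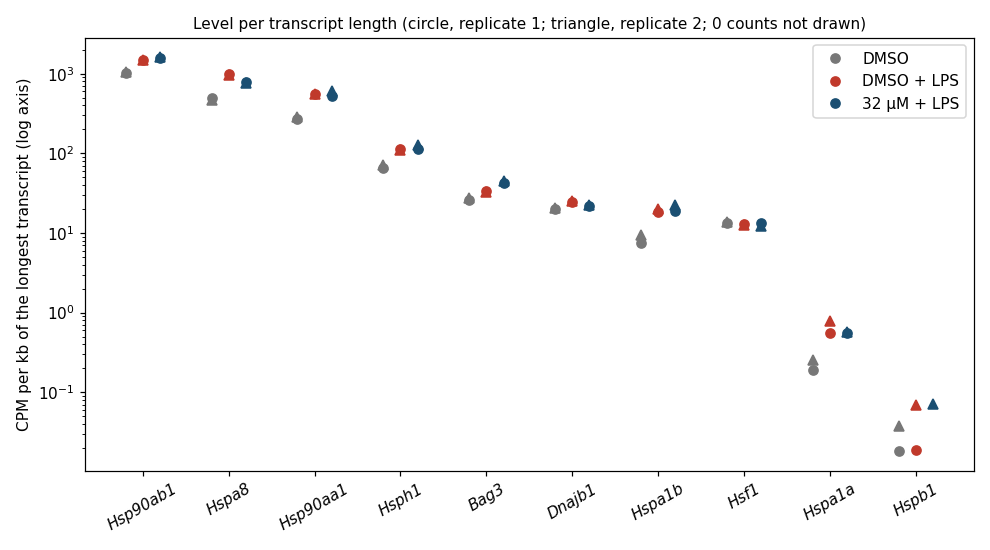
Level of the 10 members per kb of their longest annotated transcript (log axis), in DMSO, DMSO + LPS and 32 µM **1** + LPS, with 2 libraries each. The constitutive Hsp90 and Hsp70 transcripts sit above 100 CPM per kb, and *Hspa1a* and *Hspb1* sit below 1 in all libraries drawn.

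LPS raised most of the chaperone transcripts (the plot of log2 fold changes). A gene was called when it changed by at least 1.5-fold with a Benjamini-Hochberg adjusted p below 0.05 over all genes tested. By that rule 5 of the 9 tested members were called higher in DMSO + LPS than in DMSO, against 14.6% of all genes, and none lower, against 13.6%. By adjusted p alone 8 of the 9 were higher, against 25.2% of all genes, and none lower, against 25.8%. The median log2 fold change was 0.73 for the members and 0.003 for all genes. Each of the 9 had at least 33 counts in every library, DMSO included. These are bulk libraries, so fewer cells with a transcript and less of it per cell cannot be told apart. Dividing by the library total alone moved the median of all genes to -0.20, and 4 members were then called and 6 were higher by adjusted p alone. Calls over all 14172 genes, in either direction, went from 3995 to 4520 with that scale. The p-values measure the spread between these libraries, which gave 5 residual degrees of freedom.

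**Figure D2:**
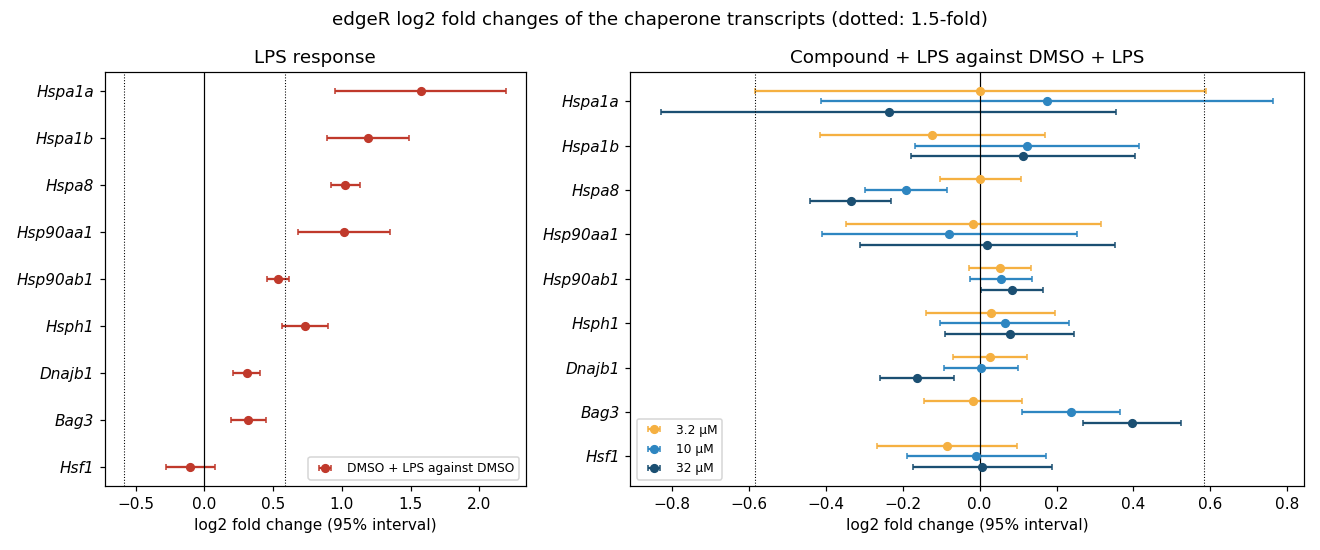
Log2 fold changes of the 9 tested members with their 95% intervals, for DMSO + LPS against DMSO (left) and for **1** + LPS against DMSO + LPS at 3 doses (right), with 2 libraries a group and dotted lines at 1.5-fold. LPS moved 8 members to the right of 0, and at 32 µM the intervals of *Bag3* (higher) and of *Hspa8* and *Dnajb1* (lower) lie clear of 0, as does, with a lower bound of 0.003, that of *Hsp90ab1*.

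The stress-inducible Hsp70 pair had the highest fold changes with LPS, with intervals that overlap those of *Hspa8* and *Hsp90aa1*. *Hspa1b* (ENSMUSG00000090877, chr17:34956436-34959238, - strand, positions from GENCODE M21) and *Hspa1a* (ENSMUSG00000091971, chr17:34969190-34972156, - strand) encode nearly the same cytosolic chaperone, which is low in most unstressed cells. *Hspa1b* measured 21.1 and 26.2 CPM with DMSO, 51.9 and 56.0 once LPS was added, 47.0 and 52.1 under 3.2 µM **1**, 55.1 and 62.3 under 10 µM and 53.2 and 63.5 under 32 µM. All 8 LPS libraries lay above both DMSO libraries, and the doses overlapped DMSO + LPS. The LPS change was 2.28-fold (95% interval 1.85 to 2.8, adjusted p = 0.000114). At 32 µM the change against DMSO + LPS was 1.08-fold (0.883 to 1.32, adjusted p = 0.715).

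*Hspa1a* measured 0.56 and 0.76 CPM with DMSO, 1.64 and 2.30 once LPS was added, 1.64 and 2.29 under 3.2 µM **1**, 2.43 and 2.01 under 10 µM and 1.63 and 1.70 under 32 µM, from 33 to 115 counts a library. Its LPS change was 2.98-fold (1.93 to 4.58, adjusted p = 0.00152), and its 8 LPS libraries lay above the DMSO ones. *Hspa1a* held 2.59 to 4.22% of the counts of the pair. Of the 150-base windows of its transcript, 38.1% also occur in *Hspa1b*, and the 130 bases printed above differ at 1 position. How the counting treated reads that match both genes is not given, so their split is uncertain. When the counts of both were added into 1 feature, that feature was also called with LPS, and the doses remained without a call.

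*Hspa8* (ENSMUSG00000015656, chr9:40800984-40810087, + strand) encodes the constitutive Hsp70 that serves protein folding, clathrin uncoating and autophagy. It measured 1575 and 1457 CPM with DMSO, 3087 and 3077 once LPS was added, 3056 and 3113 under 3.2 µM **1**, 2627 and 2767 under 10 µM and 2453 and 2430 under 32 µM. LPS raised it 2.03-fold (1.89 to 2.19, adjusted p = 6.57e-07). With **1** it was lower: both libraries at 10 µM and both at 32 µM lay below both DMSO + LPS libraries, and the 3.2 µM libraries lay on either side of them. The change was 0.792-fold at 32 µM (0.736 to 0.853, adjusted p = 0.00257), 0.875-fold at 10 µM (0.813 to 0.942, adjusted p = 0.0886) and 1-fold at 3.2 µM (0.93 to 1.08, adjusted p = 0.999). At 32 µM the level was still 1.61-fold that of DMSO (1.5 to 1.73, adjusted p = 7.38e-06). The fall at 32 µM kept an adjusted p below 0.05 in all 14 alternatives, 0.0217 without the *Gm42418*-rich replicate. Of the 150-base windows of *Hspa8*, 56% occur in other genes, most of them in *Gm26825*, which held 0 to 3 counts.

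The Hsp90 genes encode the cytosolic chaperone of kinases and nuclear receptors. *Hsp90aa1* (ENSMUSG00000021270, chr12:110690605-110702728, - strand), the more inducible form, measured 887 and 935 CPM with DMSO, 1843 and 1842 once LPS was added, 1801 and 1842 under 3.2 µM **1**, 1441 and 2047 under 10 µM and 1739 and 1999 under 32 µM. The 10 µM replicate 1, the library with epithelial markers, was the lowest of the LPS libraries and its partner the highest. LPS raised *Hsp90aa1* 2.02-fold (1.6 to 2.55, adjusted p = 0.000545). No dose passed the test. The change at 10 µM was -0.08 on the log2 scale with that replicate (adjusted p = 0.937) and 0.15 without it. Over 14 alternatives it ranged from -0.38 to 0.15, and none passed by adjusted p. Of its 150-base windows 30% also occur in the processed pseudogene *Gm12346*, which had 476 to 967 counts.

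*Hsp90ab1* (ENSMUSG00000023944, chr17:45567775-45573271, - strand), the constitutive form, measured 2591 and 2645 CPM with DMSO, 3788 and 3788 once LPS was added, 3900 and 3957 under 3.2 µM **1**, 3832 and 4041 under 10 µM and 4001 and 4026 under 32 µM. It rose 1.45-fold with LPS (1.37 to 1.53, adjusted p = 5.71e-06), under the 1.5-fold cutoff. At every dose both libraries lay above both DMSO + LPS libraries, by 1.04-fold at 3.2 µM, 1.04-fold at 10 µM and 1.06-fold at 32 µM (1 to 1.12), and none passed the test (adjusted p = 0.999, 0.637 and 0.208), though at 32 µM it did with the short-transcript covariate defined below for *Hsf1* (0.0137). Of all genes, 45.9, 35.8 and 50% had libraries that did not overlap at these doses.

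*Hsph1* (ENSMUSG00000029657, chr5:149614287-149636376, - strand) encodes Hsp110, the nucleotide exchange factor that resets Hsp70. It measured 308 and 341 CPM with DMSO, 547 and 531 once LPS was added, 546 and 553 under 3.2 µM **1**, 539 and 587 under 10 µM and 538 and 598 under 32 µM. LPS raised it 1.66-fold (1.48 to 1.87, adjusted p = 6.97e-05), with all LPS libraries above DMSO. Under division by the library total alone the change was 0.52 on the log2 scale and the call was lost. The change at 32 µM was 1.06-fold (0.939 to 1.19, adjusted p = 0.642), with overlapping libraries.

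*Dnajb1* (ENSMUSG00000005483, chr8:83608193-83612653, + strand) encodes Hsp40, the J-domain partner that delivers clients to Hsp70. It measured 59.0 and 61.2 CPM with DMSO, 73.9 and 74.8 once LPS was added, 75.2 and 76.2 under 3.2 µM **1**, 74.0 and 74.9 under 10 µM and 66.0 and 66.7 under 32 µM. The LPS rise was 1.24-fold (1.16 to 1.32, adjusted p = 0.000403), and with library size alone as the scale this log2 change of 0.31 became 0.10 and did not pass (adjusted p = 0.091). At 32 µM both libraries lay between the DMSO and the DMSO + LPS libraries, and the change against DMSO + LPS was 0.893-fold (0.836 to 0.954, adjusted p = 0.0465). That adjusted p sat close to the cutoff: it ranged from 0.00216 to 0.252 over 14 alternatives, was below 0.05 in 6, and rose above it when any of the 4 libraries compared was left out (0.183 to 0.252). The change at 10 µM was 1-fold (0.938 to 1.07, adjusted p = 0.991).

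*Bag3* (ENSMUSG00000030847, chr7:128523616-128546981, + strand) encodes a co-chaperone that links Hsp70 and small heat-shock proteins to selective autophagy, and it was the member that rose with **1**. It measured 65.8 and 70.4 CPM with DMSO, 85.1 and 84.9 once LPS was added, 83.4 and 84.6 under 3.2 µM **1**, 97.7 and 103 under 10 µM and 108 and 116 under 32 µM. LPS alone raised it 1.25-fold (1.14 to 1.36, adjusted p = 0.00165), and with library size alone as the scale this log2 change of 0.32 became 0.11 and did not pass (adjusted p = 0.111). The 3.2 µM libraries lay just under those of DMSO + LPS, both at 10 µM lay above them and both at 32 µM lay above both at 10 µM. Against DMSO + LPS the change was 0.988-fold at 3.2 µM (0.904 to 1.08, adjusted p = 0.999), 1.18-fold at 10 µM (1.08 to 1.29, adjusted p = 0.0809) and 1.32-fold at 32 µM (1.21 to 1.44, adjusted p = 0.00286). The step from 10 to 32 µM was 1.12-fold (1.02 to 1.22, adjusted p = 0.271). At 32 µM the adjusted p stayed below 0.05 in all 14 alternatives, the highest being 0.037, and the log2 change was 0.34 without the *Gm42418*-rich replicate (adjusted p = 0.0265).

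*Hsf1* (ENSMUSG00000022556, chr15:76477422-76501913, + strand) encodes the factor itself, which is controlled mostly after translation, so its transcript level is no measure of its activity. It measured 42.0 and 43.1 CPM with DMSO, 40.4 and 38.9 once LPS was added, 37.4 and 37.3 under 3.2 µM **1**, 42.3 and 36.5 under 10 µM and 41.7 and 38.0 under 32 µM. Both DMSO libraries were above both DMSO + LPS libraries, but the difference, 0.932-fold (0.823 to 1.06), did not pass the test (adjusted p = 0.319). It did pass, as a fall, with library size alone (-0.31 on the log2 scale, adjusted p = 0.0119) and with each library's level of short transcripts in the fit, below called the short-transcript covariate (-0.17, adjusted p = 0.033). At 32 µM the ratio was 1.01-fold (0.887 to 1.14, adjusted p = 0.982).

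*Hspb1* (ENSMUSG00000004951, chr5:135887919-135889563, + strand) encodes Hsp27, a small heat-shock protein that holds unfolded clients. It was near absent here. It had 1 and 2 counts with DMSO, 1 and 3 once LPS was added, 5 and 0 under 3.2 µM **1**, 17 and 1 under 10 µM, and 0 and 3 under 32 µM, which made 33 in all. In the 2 libraries with 0 counts, 3 counts allow a level of up to 0.0599 and 0.0613 CPM, by counting error only. The 17 counts came from the 10 µM replicate that held epithelial and fibroblast markers. Its part in them was not tested. The same library had 27 counts of *Serpinh1*, a collagen chaperone, and 10 of *Cryab*, another small heat-shock protein, which had at most 6 and 3 in any other.

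**Figure D3:**
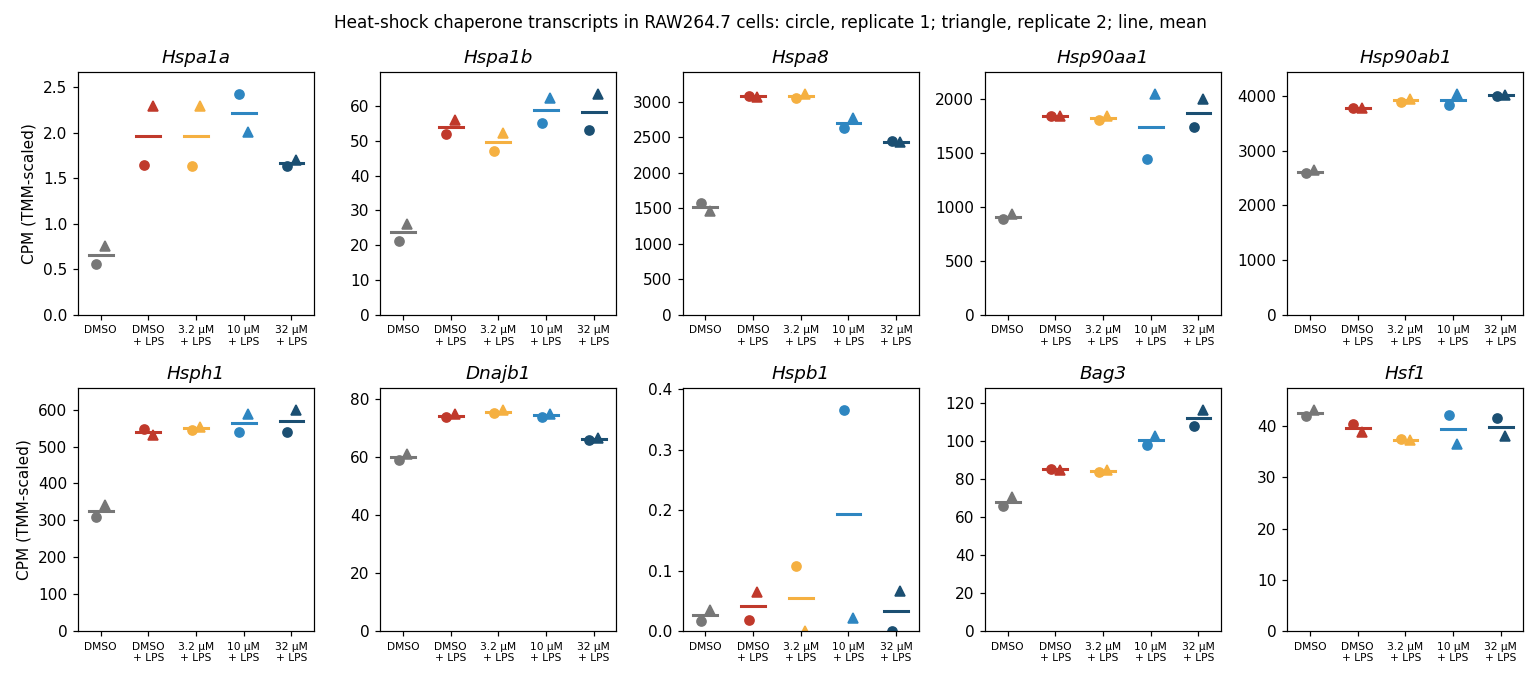
CPM of each member (linear axes from 0) in the 2 libraries of each condition, circle for replicate 1, triangle for replicate 2 and a line for the mean. *Hspa8* steps down and *Bag3* steps up across the 10 and 32 µM doses, and the highest *Hspb1* point is the 10 µM library with 17 counts.

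Across the members, **1** gave no call at any dose. At 32 µM 0 of 9 were called, against 4.18% of all genes in either direction. By adjusted p alone 1 was higher (*Bag3*), against 4.06% of all genes, and 2 were lower (*Hspa8* and *Dnajb1*), against 5.72%. The members' median log2 fold change was 0.02, beside 0.01 for all genes. At unadjusted p below 0.05 there were 4, where 22.2% of all genes were, and the DESeq2 Wald test gave 3 by adjusted p and none past 1.5-fold.

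At 10 µM edgeR called 0 of 9, against 0.861% of all genes, and 0 by adjusted p alone, against 2.67%. The calls over all genes behind that share, 122, became 52 and 59 without DMSO + LPS replicate 1 or 2, 227 without 10 µM replicate 2 and 41 in a fit of the 4 libraries compared, and no member was called in any of these. There were 2 at unadjusted p below 0.05, where 12.1% of all genes were. These were *Hspa8* and *Bag3*, and those 2 had an adjusted p below 0.05 by DESeq2 (0.0185 and 0.0325). *Bag3* also passed with the replicate number as a block (adjusted p = 0.0358), and *Hspa8* and *Bag3* with the short-transcript covariate (0.002 and 9.34e-05). Without the replicate that held epithelial markers the log2 changes of *Hspa8* and *Bag3* were -0.155 and 0.274 (adjusted p = 0.316 and 0.123). At 3.2 µM edgeR, fitted on all 10 libraries, called none of the members and none of all genes, 0% by either rule, with no member at unadjusted p below 0.05 (4.23% of all genes) and none by DESeq2. In a fit of the 4 libraries compared 66 genes were called and with the short-transcript covariate 6, none of them a member. The doses were also compared with each other. From 10 to 32 µM none of the members was called (1.32% of all genes) and none passed by adjusted p alone (2.76%), with 3 at unadjusted p below 0.05 (12.5% of all genes) and none by DESeq2. The 187 genes called there became 295 with the short-transcript covariate and 5 in the fit of the 4 libraries compared. With the short-transcript covariate *Hspa8*, *Dnajb1* and *Bag3* passed by adjusted p (0.0196, 0.00466 and 0.0109). From 3.2 to 10 µM none was called (0.254%) and none passed alone (0.903%), with 2 at unadjusted p below 0.05 (8.38% of all genes). The 36 genes called there became 6 and 5 without 3.2 µM replicate 1 or 2, 22 and 66 without 10 µM replicate 1 or 2, 111 with the short-transcript covariate and 0 in the fit of 4 libraries. *Bag3* and *Hspa8* passed by adjusted p with DESeq2 and with the short-transcript covariate.

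Cells given LPS and 32 µM **1** still differed from resting cells. Against DMSO 7 of 9 members were called higher, where 13.9% of all genes were, and 8 were higher by adjusted p alone, where 25.7% were. *Hsp90ab1* and *Bag3* passed 1.5-fold here and not with LPS alone, at 1.53-fold (1.45 to 1.62) and 1.64-fold (1.5 to 1.8). This comparison shares its DMSO libraries with the LPS comparison, so the counts are not independent. The remaining one by adjusted p, *Dnajb1*, was 1.1-fold higher (1.03 to 1.18, adjusted p = 0.0207). With the library total alone as the scale 4 were called, and calls over all genes in either direction went from 3847 to 4288. *Hsp90ab1*, *Bag3* and *Hspa8* were the calls lost (0.41, 0.51 and 0.49 on the log2 scale), and *Dnajb1* stood at -0.06. Over the 14 alternatives *Dnajb1* had an adjusted p below 0.05 in 7.

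Other chaperones were grouped by compartment. Of 30 cytosolic co-chaperones and further heat-shock factor targets 28 were tested. With LPS 5 were called higher, beside 14.6% of all genes, and 2 lower, beside 13.6%, with a median log2 change of 0.18. By adjusted p alone 10 were higher, beside 25.2%, and 5 lower, beside 25.8%, and with library size alone 5 were higher and 8 lower. *Hspa4l*, an Hsp110 relative (1.02), *Dnaja1*, a J-domain protein (0.63), and *Chordc1*, an Hsp90 partner (0.72), were those called higher with a mean above 5 CPM. *Hspb8*, the small heat-shock protein that works with BAG3 (2.75), had 0.068 and 0.106 CPM with DMSO and 0.471 and 0.724 with LPS. *Dnaja4* (1.58) went from 0.119 and 0.247 to 0.367 and 0.745 CPM, so both stayed under 1 CPM. In DMSO *Hspb8* lay below the minimum count of 10, so it passed the filter only through libraries with LPS. *Fkbp5*, an Hsp90-bound immunophilin (-0.88), and *Bag2* (-0.66) fell. *Dnaja1* and *Chordc1* came under 1.5-fold with library size alone (0.42 and 0.51), *Dnaja1* also without DMSO replicate 1 (0.56), and *Dnaja4* lost its adjusted p of 0.0414 without DMSO replicate 1 (0.201) or DMSO + LPS replicate 2 (0.275), by DESeq2 (0.0577), with library size alone (0.0644) and with the short-transcript covariate (0.0659). *Dnajb4* (0.52) was called higher with that covariate (0.66) and without DMSO replicate 2 (0.60), each time with an adjusted p below 0.05. *Stub1*, a ubiquitin ligase of chaperone clients, was lower by adjusted p alone (-0.48, adjusted p = 0.0137). It was called lower with the covariate (-0.65), with library size alone (-0.69) and without DMSO replicate 2 or DMSO + LPS replicate 2 (-0.61 and -0.63), and it did not pass without DMSO replicate 1 (-0.36, adjusted p = 0.0863) or DMSO + LPS replicate 1 (-0.35, 0.1).

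With 32 µM **1** 1 of the 28 was called, beside 4.18% of all genes. *Dnajb4*, a J-domain partner of Hsp70, measured 32.8 and 32.6 CPM with LPS, 33.8 and 34.9 under 3.2 µM, 34.8 and 41.3 under 10 µM, and 48.2 and 53.9 under 32 µM **1**. The 32 µM libraries were above all others, and the change was 1.56-fold (adjusted p = 0.00506). It fell under the cutoff without the *Gm42418*-rich replicate (log2 change 0.56, adjusted p = 0.0406) and lost its adjusted p without DMSO + LPS replicate 1 or 2 (0.0534 and 0.0551). *Hspb8* had 0.471 and 0.724 CPM in DMSO + LPS and 1.14 and 1.22 at 32 µM, a log2 difference of 0.98 that did not pass (adjusted p = 0.0961) but was called with the short-transcript covariate (0.96, adjusted p = 0.0363). The ubiquitin gene *Ubb* did not pass (0.41, adjusted p = 0.213) except with that covariate (0.46, adjusted p = 1.57e-06). In all, 5 genes gained an adjusted p below 0.05 as higher and 4 as lower at 32 µM with the covariate. At 10 and 3.2 µM edgeR called none of the 28 and none passed by adjusted p, and 1 at each dose was at unadjusted p below 0.05, beside 12.1 and 4.23% of all genes. With the covariate *Ubb*, *Dnajb4* and *Chordc1* passed as higher at 10 µM (0.000689, 0.00301 and 0.0176) and *Dnajb6* as lower (0.00402), and in a fit of the 4 libraries compared *Ubb* passed at 3.2 µM (0.0423).

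The endoplasmic reticulum chaperones, which fold secreted and membrane proteins, are given next. All 16 were tested. With LPS 7 were called higher, beside 14.6% of all genes, 15 were higher by adjusted p alone, beside 25.2%, and none was lower. With library size alone 5 were called and 10 were higher by adjusted p, and calls over all genes in either direction went from 3995 to 4520. *Hspa5*, the Hsp70 known as BiP, rose by 1.18 on the log2 scale, *Dnajb9* by 1.44, *Manf* by 1.27, *Creld2* by 1.18, *Hyou1* by 0.96, and *Hsp90b1* and *Pdia6* by 0.72 each, which became 0.52 and 0.52 with library size alone. At 32 µM none was called, and 5 were lower by adjusted p alone, beside 5.72% of all genes: *Hspa5* (-0.33, adjusted p = 0.0103), *Pdia4* (-0.27, 0.00299), *Pdia6* (-0.29, 0.0115), *Calr* (-0.31, 0.00422) and *Sdf2l1* (-0.39, 0.0423). *Hspa5* measured 2940 and 2960 CPM with LPS, 2800 and 2840 under 3.2 µM, 2490 and 2670 under 10 µM, and 2250 and 2450 under 32 µM **1**, so all libraries with **1** were below both DMSO + LPS libraries. *Pdia4* and *Calr* passed in all 14 alternatives. *Hspa5* did not pass without either DMSO + LPS library or 32 µM replicate 1 (0.0654 to 0.0792), *Pdia6* without either DMSO + LPS library or 32 µM replicate 2 (0.0648 to 0.0934), and *Sdf2l1* without any of the 4 libraries (0.0782 to 0.249). *Hsp90b1* (-0.32, adjusted p = 0.0646), *Creld2* (-0.30, 0.123) and *Manf* (-0.21, 0.523) did not pass. Under other settings *Hsp90b1* and *Creld2* passed by DESeq2 (0.00527 and 0.0412), with the replicate block (0.00923 and 0.0437), with no count filter (0.0137 and 0.0405) and with the short-transcript covariate (3.25e-05 and 2.65e-05), both also without 10 µM replicate 1 (0.0492 and 0.0489) and *Hsp90b1* without 32 µM replicate 1 (0.0234). With the covariate *Manf*, *Pdia3* and *Dnajb11* also passed as lower (0.00176, 0.000126 and 0.0048), *Dnajb11* by DESeq2 too (0.0306), and *Dnajb9*, *Hspa13* and *Dnajc10* passed as higher (0.21, 0.16 and 0.08 on the log2 scale, adjusted p = 0.00292, 0.00422 and 0.0499). The list had a median of -0.19 at 32 µM, and edgeR passed none of its genes at 10 or 3.2 µM, beside 2.67 and 0% of all genes, and 4 and 0 were at unadjusted p below 0.05, beside 12.1 and 4.23%. At 10 µM 5 passed as lower with the covariate, *Hspa5* (0.000127), *Pdia6* (0.00023), *Calr* (0.00532), *Pdia4* (0.0176) and *Pdia3* (0.0243), and *Dnajb9* as higher (0.00498), and *Pdia6* passed by DESeq2 (0.0112).

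The cytosolic chaperonin TRiC, which folds actin and tubulin, and the mitochondrial chaperones were the last groups. Of 8 TRiC subunits *Cct3* (0.72) and *Cct7* (0.61) were called higher with LPS, beside 14.6% of all genes, and 7 were higher by adjusted p alone, beside 25.2%, *Cct4* among them (0.20). The median was 0.29, and with library size alone 3 were higher by adjusted p. Of 9 mitochondrial genes *Grpel1*, the nucleotide exchange factor, was called higher (0.65) and *Hscb*, of iron-sulfur assembly, lower (-1.01), shares near the 14.6 and 13.6% of all genes, and 3 were higher and 3 lower by adjusted p alone, beside 25.2 and 25.8%. With library size alone *Cct3*, *Cct7* and *Grpel1* came under 1.5-fold (0.52, 0.40 and 0.44), as did *Cct7* and *Grpel1* without DMSO replicate 2 (0.53 and 0.52) and with the short-transcript covariate (0.54 and 0.47), and *Cct7* without DMSO + LPS replicate 2 (0.58). *Dnaja3* was lower by adjusted p alone (-0.16), and it did not pass in 5 of 15 alternatives, namely the fit of the 4 libraries compared (0.0875), no count filter (0.0826) and without DMSO replicate 1 (0.117) or DMSO + LPS replicate 1 or 2 (0.0813 and 0.1). *Hspe1*, the Hsp10 gene, was 0.43 higher with adjusted p = 0.147, and it passed with the replicate block (0.04) and was called without DMSO replicate 1 (0.78, adjusted p = 0.018). With **1** the edgeR fit of all 10 libraries with no covariate passed none of either list by adjusted p at any dose, and 1 of each list was at unadjusted p below 0.05 at 32 µM, where 22.2% of all genes were. With the covariate *Cct3* and *Hspd1* passed as lower at 32 µM (0.0111 and 0.0275) and *Dnaja3* as higher (0.0274), and in a fit of the 4 libraries compared *Hspe1* passed at 3.2 µM (0.045). Of the other heat-shock factors *Hsf2* was higher with LPS by adjusted p alone (0.47, adjusted p = 0.00223) and 0.20 higher at 32 µM (adjusted p = 0.23, and 0.0227 with the covariate), and *Hsf3* and *Hsf5* did not pass the count filter.

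**Figure D4:**
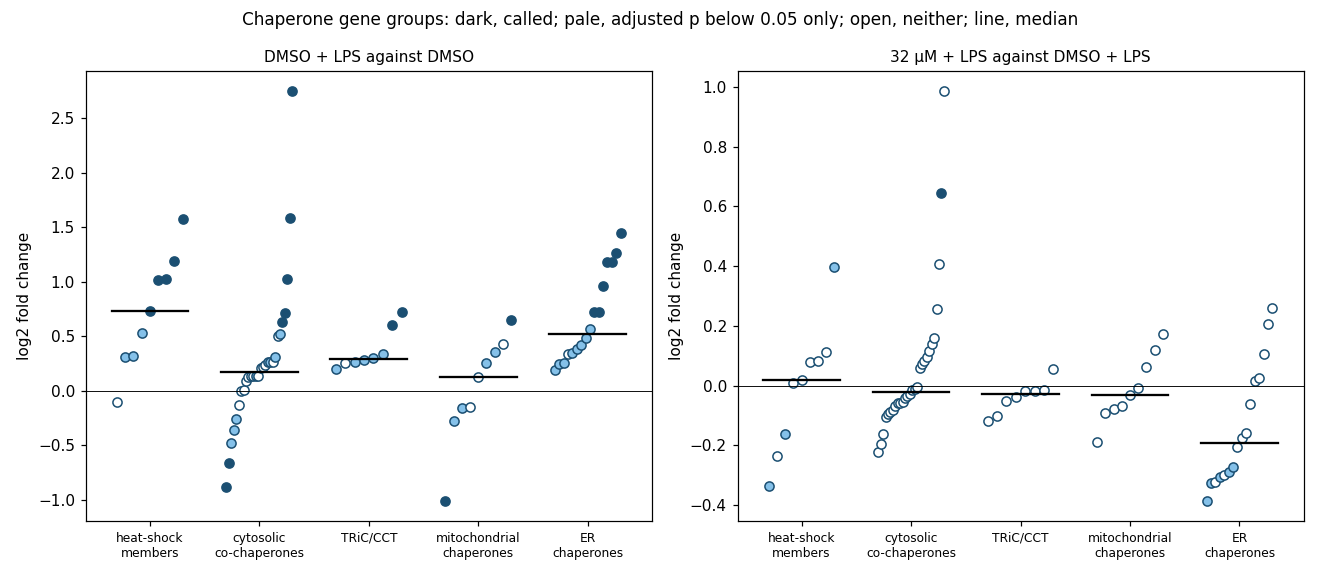
Log2 fold change of each tested chaperone gene by group, for DMSO + LPS against DMSO and for 32 µM **1** + LPS against DMSO + LPS, with a line at each group's median (members 0.73 and 0.02, endoplasmic reticulum chaperones 0.52 and -0.19). Filled points were called, pale points passed by adjusted p alone and open points neither, and *Dnajb4* is the filled point at 32 µM.

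Across the 10 libraries, the genes whose log2 CPM followed the members most closely, among 9562 with a mean of at least 5 CPM, are given as a description, since the points fall into resting and LPS-treated cells and share their libraries. *Bag3* ran closest to *Gclm*, a glutathione-synthesis gene (Pearson's r = 0.994), then *Limd1* and *Abcb4* (0.989 each). *Gclm* itself rose by 0.75 with LPS, 0.45 at 10 µM and 0.88 at 32 µM on the log2 scale, against 0.32, 0.24 and 0.40 for *Bag3*. *Hspa8* ran closest to *Psma6*, a proteasome subunit (0.997), *Ccrl2* and *Gbp3* (0.996 each), *Hsp90aa1* to *Hif1a* and *Serp1* (0.993 each) and *Serinc1* (0.991), *Hsp90ab1* to *Mfap3l* (0.998), *Fyb* and *Nol4l* (0.997 each), and *Hsph1* to *Psmd10* (0.998), *Actn1* and *Vps26a* (0.997 each). *Hspa1b* was closest to *Fbxo33* (0.993) and *Rbfox1* (0.991), and *Hspa1a*, with few counts, to *Orai1* (0.974), *Gas2l1* (0.973) and *Ccdc86* (0.972).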

How the data were processed

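The deposited values were raw counts per mouse Ensembl gene, which the authors made without normalization from poly(A)-selected, directional libraries read with 2 × 150 cycles on 1 lane. The submitters' processing notes name Trimmomatic, FastQC, STAR, DESeq2 and mm10; the counting tool, the versions, the annotation and the use of the strand are not given in the sources used here. Symbols and positions came from GENCODE M21 on GRCm38 (42548 of 43432 identifiers matched), promoters from RefSeq.

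Counts were filtered with filterByExpr (minimum count 10), scaled by TMM and fitted with edgeR's quasi-likelihood test in 1 model of all 10 libraries with 1 mean per condition, adjusted over 14172 genes. Software was edgeR 4.0.16 and DESeq2 1.42.0 in R 4.3.3, with limma 3.58.1 and version 1.17.8 of data.table, and Python 3.11.15 with pandas 2.3.3 and matplotlib 3.10.9. The fit was tested on simulated data. No library was left out. The smallest p that an exact permutation test of 2 against 2 libraries allows is 0.333, so none was run. At 5 CPM counting error was 6.65% in the library of the smallest scaled size.

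The members and lists were chosen with earlier results of these data known. All members are named; of the other lists, genes called with LPS or at any dose, and otherwise the 3 with the largest change at 32 µM among those at 5 CPM or more. Some genes that this rule names are not reported here. *Pdia4*, *Calr*, *Serpinh1*, *Cryab*, *Hsf3*, *Hsf5*, *Dnajb6*, *Dnajb11*, *Dnajc10*, *Hspa13*, *Hspd1*, *Pdia3*, *Stub1* and the TGAC motifs were added after the values were seen. Alternatives were DESeq2 size factors or library size alone as the scale, no filter on counts, the replicate block, a short-transcript score (under 1000 nt) in the fit, the DESeq2 test, a fit of the 4 libraries compared, summed *Hspa1* counts, no fold cutoff and each library left out. Leaving out 10 µM replicate 1 or 32 µM replicate 2 from comparisons that do not hold them was added after the data were seen. A change of sign counted as a reversal only where the 95% interval of the value excluded 0.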

Additional observations from a re-analysis of the deposited data

How the results depend on the processing

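The number of called members was the same, or within 1.5 times, in all alternatives run but the following. With library size alone, 4 members in place of 7 were called for 32 µM + LPS against DMSO, and *Dnajb1* there turned from 0.143 to -0.061 on the log2 scale; with this scale the median of all genes was -0.18, against 0.02. With no fold cutoff, 8 members passed with LPS and 3 at 32 µM. Of 884 values, 57 others changed sign, all where the 95% interval held 0. For 32 µM + LPS against DMSO, *Dnajb1* (adjusted p = 0.0207) lost its adjusted p without DMSO replicate 1 or 2 or 32 µM replicate 1 or 2 (0.0741 to 0.129), with no count filter (0.171) and in the fit of the 4 libraries compared (0.114). The replicate differences correlated at -0.42 to 0.83 between conditions, negative wherever DMSO + LPS entered, so the numbers were not taken as pairs. With the replicate block, 5 members were called with LPS, 7 for 32 µM + LPS against DMSO and none at any dose, calls over all genes at 10 µM went from 122 to 174 (41 to 232 over all alternatives that kept the fold cutoff), and *Bag3* passed by adjusted p at 10 µM. The short-transcript score in the fit, which left fewer residual degrees of freedom, raised the number of members with an adjusted p below 0.05 to 9 with LPS, 4 at 32 µM, 2 at 10 µM, 3 for 32 against 10 µM and 2 for 10 against 3.2 µM. Of the 9 with LPS, *Hsf1* was lower. Calls over all genes, which keep the fold cutoff, rose too. They went from 3995 to 4175 with LPS, from 592 to 777 at 32 µM and from 122 to 232 at 10 µM. For 32 against 10 µM they went from 187 to 295, and for 10 against 3.2 µM from 36 to 111. Depth limits *Hspa1a* and *Hspb1*; the other 8 members had at least 1243 counts in every library.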
